A study of Papio anubis with 24 samples.

Results

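Chromosome 10 of the olive baboon (Papio anubis) was described by its methylated sites in pluripotent cells, as called by MeDIP-seq, in which an antibody against 5-methylcytosine pulls down methylated DNA fragments for sequencing beside an unprecipitated input. The members were all peaks that the 2 deposited lists place on chromosome 10: 8224 of 166961 peaks in the list of embryonic stem cells (ESC) and 2768 of 44434 in the list of induced pluripotent stem cells (iPSC), or 10992 of 211395 in both. The chromosome was selected from the peak lists themselves, after its density of peaks had been seen, so its density and its place among the autosomes are given as descriptions with no test. The labels name 24 libraries, with 2 lines per cell type and, from every line, 3 MeDIP libraries and 3 inputs. The ESC lines are titled B4 and B15, the iPSC lines 160-2 and M14939#3, and all were grown on feeder cells in the same medium. For 5 of the 6 libraries of M14939#3 the cell line label ends in another number than the title. No age, sex or treatment of the cells is given in the sources used here. Each cell type has 1 list and each list pools its libraries, so no value per line or replicate exists, cell type and line cannot be told apart, and no difference between ESC and iPSC can be tested. Depth per library is unknown, and peak lists hold no expression by which the labelled cell type could be checked.

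Methylation of cytosine is found at most CpG dinucleotides of the mammalian genome. It is sparse at most CpG islands and is known in pluripotent cells for being rewritten during reprogramming. MeDIP recovers a fragment more readily the more methylated CpGs it carries, so a peak marks a stretch where methylated CpGs lie close together, and stretches of CpG-poor DNA give few peaks even when methylated. Gene-rich, GC-rich chromosomes and the ends of chromosomes are known for a high CpG content. No annotation or genome of the build of the lists was used here, so sites are given by position, counted from 1 as the lists number them, with no gene, no sequence and no base composition.

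Chromosome 10 was one of the 4 autosomes dense in peaks, and it stood higher in the iPSC list than in the ESC list. It spanned 91.3 Mb up to its last peak, 3.52% of the span of the 20 autosomes, and held 5.42% of the autosomal ESC peaks (exact 95% interval 5.31 to 5.54%) and 6.82% of the iPSC peaks (6.58 to 7.07%). These intervals, like all below, cover counting error only and take peaks as independent, which neighbours are not. The ESC density was 90.1 peaks per Mb, rank 4 of 20 autosomes after chromosomes 19, 16 and 20, and 1.57 times that of the other 19 pooled (57.3 per Mb, interval of the ratio 1.54 to 1.61). The iPSC density was 30.3 peaks per Mb, second to chromosome 19 alone and 2.01 times that of the others (15.1 per Mb, interval 1.93 to 2.08). Chromosome 16, which was denser in ESC peaks at 103.8 per Mb, had 29.9 iPSC peaks per Mb, and the intervals of the iPSC values of chromosomes 10 and 16 overlapped.

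**Figure D1:**
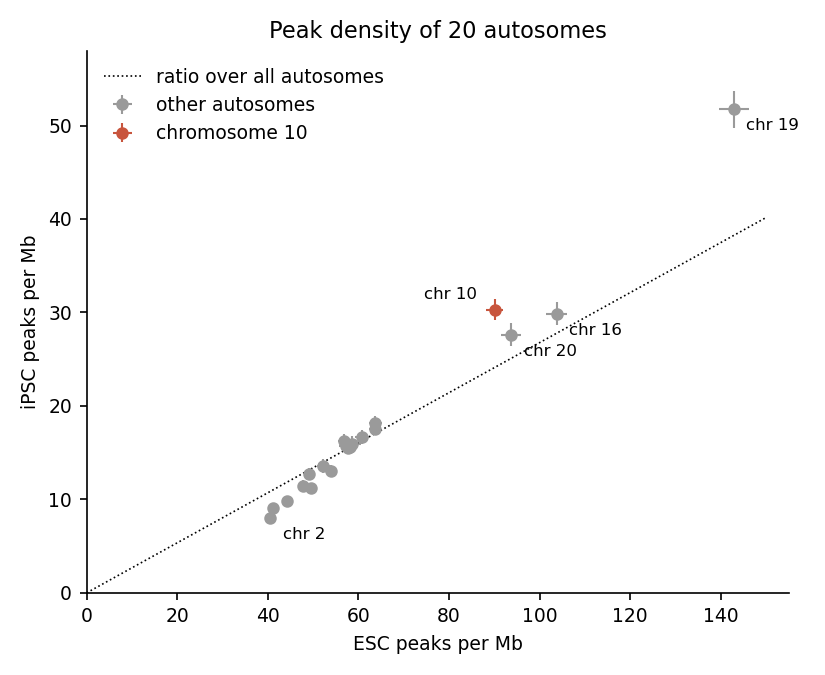
Peaks per Mb in the ESC list (horizontal axis) and in the iPSC list (vertical axis) for each of the 20 autosomes, with bars for exact Poisson 95% intervals and a dotted line at the ratio over all autosomes. Chromosome 10, at 90.1 ESC and 30.3 iPSC peaks per Mb, lies above the line with chromosome 19, whereas chromosomes 16 and 20 lie closer to it.

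The share of iPSC peaks on chromosome 10 was high for an autosome. Per 100 ESC peaks it held 33.7 iPSC peaks (interval 32.2 to 35.1), against 26.4 on the other autosomes (26.1 to 26.7), 28.8 on chromosome 16, 29.4 on chromosome 20 and 36.2 on chromosome 19. The excess lay mainly inside the chromosome. More than 5 Mb from either end the ratio was 30.8 per 100 (29.3 to 32.4) on chromosome 10 and 22.8 (22.5 to 23.1) elsewhere, whereas within 5 Mb of an end it was 43.1 (39.6 to 46.8) and 39.4 (38.6 to 40.3). Interior density was 77.8 ESC and 24.0 iPSC peaks per Mb, which was 1.60 and 2.17 times the interior of the other autosomes. At the ends it was 189.7 and 81.7 per Mb, which was 1.16 and 1.27 times the ends of the others. Within 5 Mb of an end lay 23.1% of the ESC peaks (21.7% on the other autosomes) and 29.5% of the iPSC peaks (32.4% on the others). The iPSC share at the ends was thus above the ESC share by 6.45 percentage points, where the other autosomes ran from −0.197 to 16.7 with a median of 10.4.

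Counted in windows of 1 Mb by the start of each peak, density along chromosome 10 was high at both ends and uneven between them, with no empty window. The 92 windows held 19 to 278 ESC peaks (median 84) and 3 to 130 iPSC peaks (median 25.5). The lowest ESC window, with 19 peaks, was higher than the lowest of each other autosome (3 to 18). Chromosomes 10 and 16 were the autosomes with an iPSC peak in every window. The other autosomes have from 52 to 218 windows, and the last window of each autosome is shorter than 1 Mb. Neither was allowed for in these comparisons of lowest and empty windows. Counts of the 2 lists ranked alike over the windows, with a Spearman correlation of 0.848 (92 windows of the same lists, which share their place and base composition), within the range of the other autosomes (0.740 to 0.915).

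**Figure D2:**
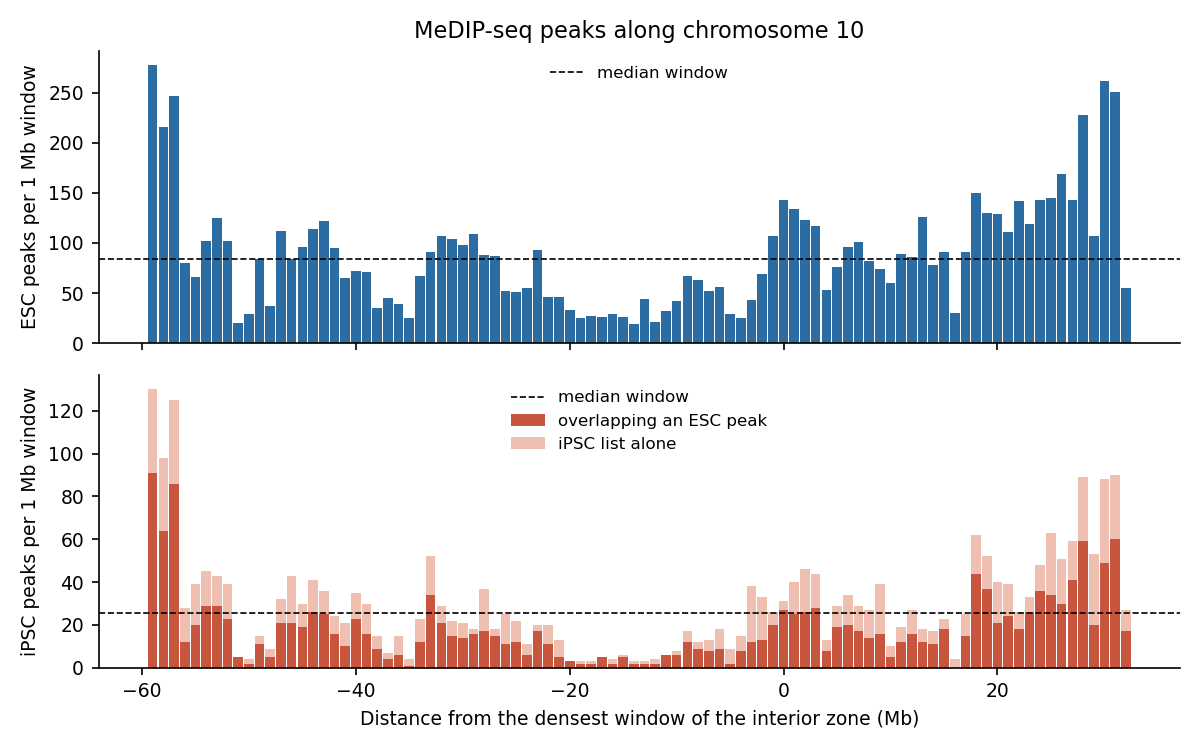
Peaks per 1 Mb window along chromosome 10 in the ESC list (top) and in the iPSC list (bottom, divided into peaks that overlap an ESC peak and peaks in the iPSC list alone), by distance in Mb from the window of 59 to 60 Mb, with dashed lines at the median windows of 84 and 25.5 peaks. Both lists are high at the ends, low from 22 to 10 Mb before that window, and raised again from that window to 4 Mb past it and from 18 Mb past it to the end.

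The beginning of the chromosome was its densest stretch. The first window held 278 ESC and 130 iPSC peaks, and the third, from 2 to 3 Mb, held 247 and 125. These ranked 1 and 4 of 92 for ESC and 1 and 2 for iPSC, and the window between them (216 and 98) ranked 3 for iPSC. From 3 to 4 Mb the counts were 80 and 28, so the dense start ended within 1 window. At the other end the windows from 89 to 90 Mb (262 and 88), 90 to 91 Mb (251 and 90) and 87 to 88 Mb (228 and 89) stood out, with a dip to 107 and 53 between them at 88 to 89 Mb. The last window, which covers less than 1 Mb, held 55 and 27. The first 5 windows held 887 ESC and 420 iPSC peaks and the last 6 held 1046 and 406, so the start had more iPSC peaks for its ESC peaks.

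Maxima of density were then sought away from the ends. By the rule for an interior maximum (a window wholly more than 5 Mb from both ends, with at least 2 times the median count and the highest count within 2 windows on either side), 0 of 80 interior windows qualified in the ESC list. The window from 85 to 86 Mb reached the threshold of 168 with 169 ESC peaks but had a higher window within its flanks. The next below were 77 to 78 Mb (150), 84 to 85 Mb (145), and 59 to 60 Mb and 83 to 84 Mb (143 each). In the iPSC list 3 windows qualified at a threshold of 51. They were 84 to 85 Mb (63 peaks, 145 ESC), 77 to 78 Mb (62 peaks, 150 ESC) and 26 to 27 Mb (52 peaks, 91 ESC), and 85 to 86 Mb (51) and 78 to 79 Mb (52) reached the threshold next to a higher window. At 1.5 times the median, a limit chosen after the counts were seen, 3 ESC windows qualified, at 59 to 60 Mb, 72 to 73 Mb (126) and 77 to 78 Mb, and 6 iPSC windows. The counts of maxima changed with the placing of windows and support no statement of how many interior peaks there are.

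Runs of at least 3 whole windows at or above the upper quartile of ESC counts (112.5) or at or below the lower quartile (46) gave 4 dense and 3 sparse stretches. The limits were chosen after the counts were seen, so the ESC densities describe the choice. The dense stretches were 0 to 3 Mb, 59 to 63 Mb, 77 to 80 Mb and 81 to 88 Mb, with 247.0, 129.3, 136.3 and 155.6 ESC peaks per Mb. In the iPSC list the same stretches had 117.7, 40.3, 51.3 and 52.7 peaks per Mb, all above the 28.5 of the windows outside any stretch. The start thus exceeded the later stretches by more in the iPSC list than in the ESC list: it had 47.6 iPSC peaks per 100 ESC peaks (41.8 to 54.1), against 31.1 at 59 to 63 Mb (25.9 to 37.2), 37.7 at 77 to 80 Mb (31.1 to 45.4) and 33.9 at 81 to 88 Mb (30.03 to 38.2). The last of these stretches runs into the final 5 Mb of the chromosome. The intervals of the 3 later stretches overlapped each other, and that of the start overlapped that of 77 to 80 Mb. The start lies wholly within 5 Mb of an end, where the ratio was 43.1 on chromosome 10 and 39.4 on the other autosomes.

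Within the zone from 59 to 63 Mb, itself chosen after the counts were seen, the window counts of the lists did not run in parallel. ESC counts went 143, 134, 123 and 117 over its 4 windows, while iPSC counts went 31, 40, 46 and 44. The ratio was 21.7 iPSC peaks per 100 ESC peaks in the first window and 37.6 in the last. Their intervals overlapped (14.2 to 32.1 and 26.0 to 53.6), so no gradient is read from these counts. Just before it, from 58 to 59 Mb, there were 107 ESC and 26 iPSC peaks (24.3 per 100).

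The longest sparse stretch, from 37 to 50 Mb, was poor in peaks of both lists and poorer in the iPSC list. It held 416 ESC peaks (32.0 per Mb) and 81 iPSC peaks (6.23 per Mb), or 19.5 iPSC per 100 ESC peaks (15.2 to 24.8). The 3 lowest ratios among windows with at least 20 ESC peaks all lay inside it, at 46 to 47 Mb (6.82 per 100, 3 of 44), 39 to 40 Mb (9.09, 3 of 33) and 41 to 42 Mb (11.1, 3 of 27). These are not extreme for the autosomes, where the first of them ranked 179 from the lowest of 2308 such windows. The longest interval without an iPSC peak, 1084 kb from 46555824 to 47639577, lay there too and held 27 ESC peaks. Of the 3 windows with fewest ESC peaks, 45 to 46 Mb (19) and 47 to 48 Mb (21) were in this stretch, and the third, 8 to 9 Mb (20), lay near the start. Before 37 Mb the ratio was 36.0 per 100 (33.7 to 38.5) and after 50 Mb 33.2 (31.3 to 35.2), so the high ratio of chromosome 10 was present on both sides of the stretch.

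A short stretch from 54 to 57 Mb ran against this pattern, sparse in ESC peaks and rich in iPSC peaks for that sparseness. With 97 ESC and 62 iPSC peaks it had 63.9 iPSC per 100 ESC peaks (45.7 to 88.8), the highest of the 7 stretches. The window from 56 to 57 Mb held 43 ESC and 38 iPSC peaks, and its ratio of 88.4 per 100 (55.6 to 140.0) was second among 2308 autosomal windows with at least 20 ESC peaks. The window before it (25 and 15, 60 per 100) and that from 4 to 5 Mb (66 and 39, 59.1 per 100) had the next highest ratios on the chromosome. Of the 38 iPSC peaks from 56 to 57 Mb, 26 met no ESC peak. Inside the window the longest ESC-free interval of the chromosome, 308 kb from 56659229 to 56966762, held 8 iPSC peaks, 195 to 475 bp wide with folds of 1.97 to 3.47. Over all 20 autosomes, 1 other interval between neighbouring ESC peaks held as many. These windows were singled out by their ratio, and their values are a description.

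Windows of like ESC density were then set side by side, since a dense chromosome has more dense windows. Among interior windows with 30 to 59 ESC peaks, chromosome 10 had 30.7 iPSC per 100 ESC peaks (26.5 to 35.5, 18 windows), against 19.6 (19.2 to 20.1, 877 windows) on the other autosomes. With 60 to 89 ESC peaks it had 33.2 (29.8 to 36.9), against 24.3, and with 90 to 119 it had 30.4 (27.8 to 33.3), against 26.8 (25.9 to 27.7). In the 2 lower of these classes each other autosome with at least 200 ESC peaks in the class was below chromosome 10 (highest 28.7 and 30.8), and in the next 2 were above it. In the sparsest class, with at most 29 ESC peaks, the values were 21.6 (16.3 to 28.3, 12 windows) and 14.6 (14.0 to 15.2). Without the windows from 54 to 57 Mb, left out after their ratio was seen, chromosome 10 had 16.6 in the sparsest class (11.6 to 23.2, 10 windows), which held the pooled value of the others in its interval, and 27.4 with 30 to 59 ESC peaks (23.4 to 32.0), where 1 other autosome was then above it. From 120 to 159 ESC peaks the values were 31.3 (28.3 to 34.6) and 31.1 (29.8 to 32.4). With all windows kept, the iPSC ratio of chromosome 10 was thus above the pooled value of the others in interior windows of up to 119 ESC peaks. From 120 to 159 ESC peaks it was about the same as theirs. The windows from 54 to 57 Mb had been picked for their high ratio and were left out of chromosome 10 alone. Lower values without them were thus fixed by the choice, and no conclusion is drawn from them.

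**Figure D3:**
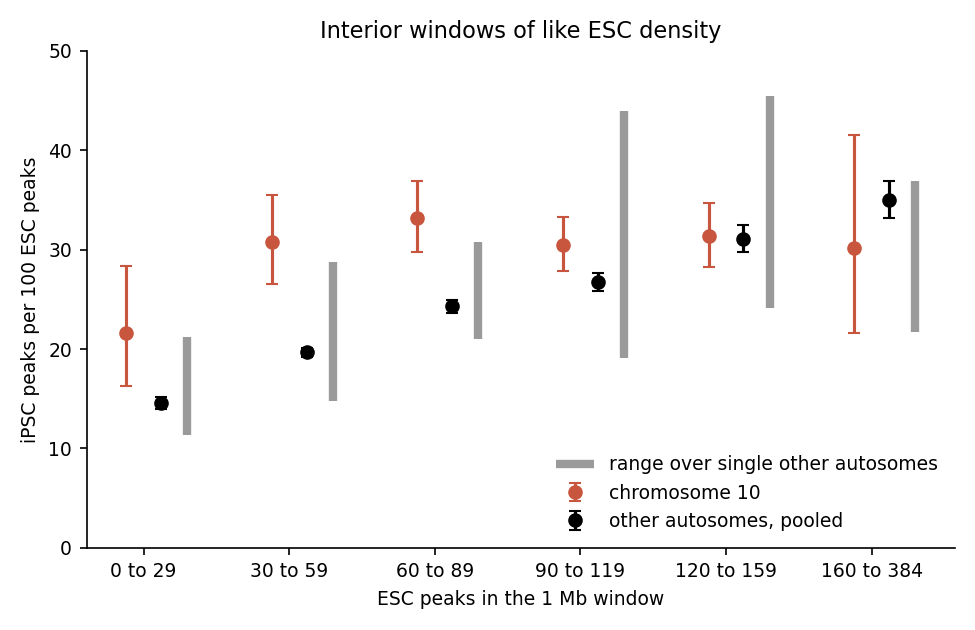
iPSC peaks per 100 ESC peaks in interior 1 Mb windows, grouped by the number of ESC peaks in the window, for chromosome 10 (red) and the other autosomes pooled (black), with exact 95% intervals, and the range over single other autosomes with at least 200 ESC peaks in the class (grey). Chromosome 10 lies above the pooled value at up to 119 ESC peaks per window and beside it from 120 to 159, and its densest class holds 1 window.

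Peaks of the 2 lists coincided less often than elsewhere when counted over the iPSC list, and more often when counted over the ESC list. Of the 2768 iPSC peaks, 1715 (62.0%, 60.1 to 63.8%) overlapped an ESC peak by at least 1 bp, where the other autosomes together had 66.8%. This was the lowest share of the 20 autosomes, of which the next was chromosome 1 at 64.5%. In the ESC list 1739 of 8224 peaks (21.1%, 20.3 to 22.0%) met an iPSC peak, against 17.9% on the others, the second highest share after chromosome 19 (25.3%). The low iPSC share stood beside a high density of ESC peaks, and the part of that density in the share was not tested. The iPSC share was lower than that of the pooled others in the interior (61.6%, against 65.2%), where chromosome 20 was lower still at 61.4%. It was also lower at the ends (62.9%, 59.5 to 66.2%, against 70.1%). The ESC share was higher in the interior (19.2%, 18.2 to 20.2%, against 15.04%) but not at the ends (27.6%, 25.6 to 29.7%, against 28.2%). In 4 classes of equal size made from all autosomal iPSC peaks by −log10 q, from weakest to strongest, the share on chromosome 10 was lower, at 53.8, 60.7, 64.6 and 68.4% against 58.1, 65.0, 70.8 and 73.4%, with overlapping intervals in the 2 weaker classes. Over the whole chromosome it remained the lowest of the 20 autosomes under each of the 5 alternatives run for it, among them the list without the windows from 54 to 57 Mb (62.6%).

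**Figure D4:**
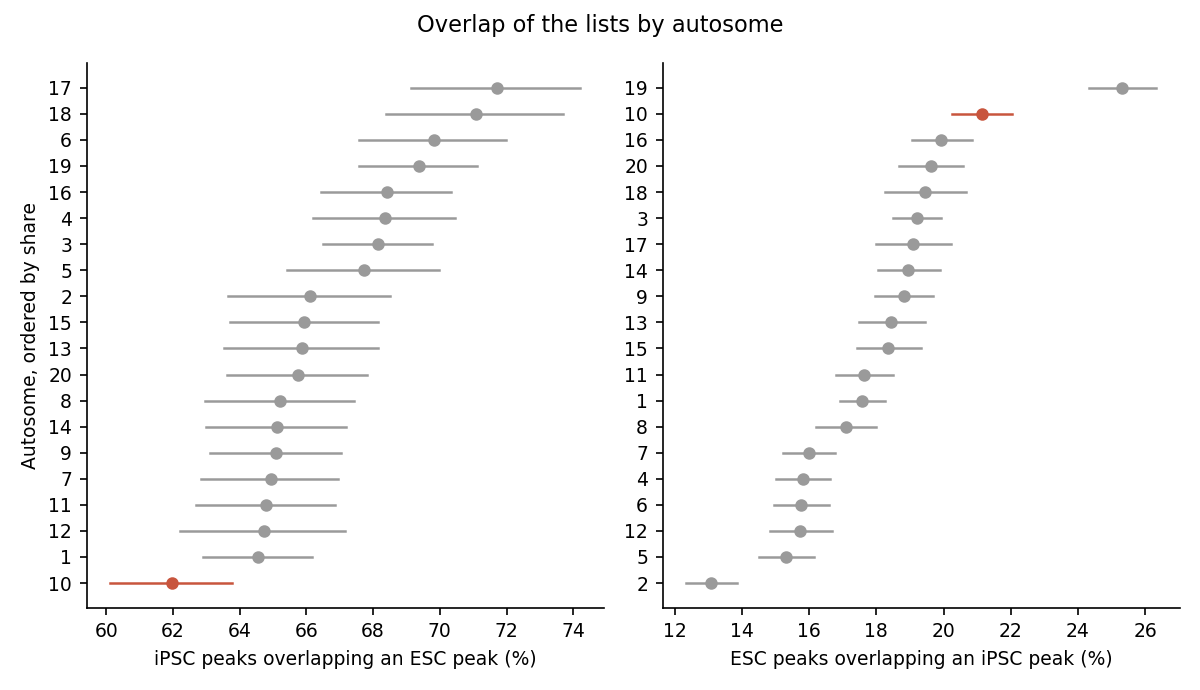
Share of iPSC peaks that overlap an ESC peak (left) and of ESC peaks that overlap an iPSC peak (right) for each autosome, ordered by share, with exact 95% intervals. Chromosome 10 (red) is lowest on the left at 62.0% and second highest on the right at 21.1%.

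The iPSC list thus had 1053 peaks on chromosome 10 that met no ESC peak. Their density was 11.5 per Mb, 2.30 times that of the other autosomes (2.16 to 2.45) and second to chromosome 19, while overlapping iPSC peaks were 1.86 times as dense (1.77 to 1.95). They were spread over 88 of 92 windows, with a median of 9.5 per window. The 9 windows with most of them held 28.4% of the peaks in the iPSC list alone and 28.0% of all iPSC peaks, so they were not more concentrated than the list. The windows richest in them were the first (39), 2 to 3 Mb (39), 89 to 90 Mb (39), 1 to 2 Mb (34) and 88 to 89 Mb (33). In the last of these, 20 of 53 iPSC peaks (37.7%, 24.8 to 52.1%) overlapped an ESC peak, and from 56 to 57 Mb 12 of 38 did (31.6%, 17.5 to 48.7%). The 3 later dense stretches differed little in this share, at 65.8% from 59 to 63 Mb, 66.2% from 77 to 80 Mb and 66.1% from 81 to 88 Mb. Peaks in the iPSC list alone lay a median of 3.33 kb from the nearest ESC peak, and 35.4% of them were within 2 kb. Both values were ordinary for an autosome. The median of the other autosomes was 3.40 kb for the distance and 33.3% for the share (range 22.4 to 48.2%).

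Peaks of chromosome 10 were about as wide as those elsewhere. The median width was 217 bp in the ESC list (quartiles 192 and 273 bp) and 215 bp on the other autosomes, and 246 bp in the iPSC list (quartiles 209 and 336 bp) and 241 bp on the others. Both medians ranked 4 of the 20 autosomes. A width of 1 kb was reached by 62 of the 2768 iPSC peaks of chromosome 10 (interval of the share 1.72 to 2.86%; 2.09% on the others) and by 7 of the 8224 ESC peaks (0.0851%; 0.113% on the others). These shares differed by less than their counting intervals. iPSC peaks at the ends were wider (median 268 bp) than in the interior (239 bp), and so were ESC peaks (226 and 215 bp). Among ESC peaks, those that overlapped an iPSC peak were wider (255 bp) than the rest (210 bp), whereas iPSC peaks differed little between the classes (244 and 247 bp). Peaks covered 2.25% of the span in the ESC list and 0.989% in the iPSC list.

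The widest sites were found in both lists and in the iPSC list alone. The widest peak of the chromosome was an iPSC peak of 3260 bp at chr10:61267783-61271042 (fold 2.51), in the dense zone that starts at 59 Mb. It met a single ESC peak of 460 bp with a fold of 2.66. The next widest pairs had iPSC peaks of 1796 bp at chr10:28006253-28008048 (iPSC fold 3.90, ESC fold 1.26) and 1637 bp at chr10:49222325-49223961 (3.22 and 1.24). In the iPSC list alone the widest were 3000 bp at chr10:74889-77888, 2061 bp at chr10:91251462-91253522 and 1706 bp at chr10:84340557-84342262, with gaps of 5333, 4973 and 13257 bp to the nearest ESC peak. The first of these lies in the first window of the chromosome and the second in the last. The widest ESC peaks without an iPSC peak were narrower, at 853, 835 and 784 bp, the first at chr10:879102-879954.

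The deposited fold enrichment, the authors' ratio of the summit pileup over the local background, was slightly lower on chromosome 10. Its median was 2.17 in the ESC list, against 2.29 on the other autosomes, the second lowest autosome after chromosome 19. In the iPSC list it was 2.56, against 2.59. The highest folds among sites shared by 1 peak of each list were at chr10:67883502-67883858 (6.59 in iPSC, 1.29 in ESC), chr10:69616783-69617028 (6.12 and 2.75) and chr10:74553568-74553818 (5.67 and 3.54). In the iPSC list alone they were at chr10:79532673-79532999 (6.59), chr10:74337937-74338168 (6.24) and chr10:2349798-2350096 (5.52), with gaps of 1192, 1005 and 1617 bp to an ESC peak. In the ESC list alone they were at chr10:59663334-59663555 (5.61), chr10:4462019-4462215 (5.61) and chr10:65370463-65370697 (5.32). In the list whose fold ranked them, which is iPSC for the shared sites, all 9 had a background of at most 2.11 times its lowest. The median was 2.91 times for the ESC peaks and 2.64 times for the iPSC peaks of chromosome 10. For the shared sites the ESC background is not given here. A ratio to the background favours sites of low background.

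At the 1666 sites of chromosome 10 where a single peak of each list met, the iPSC fold was the higher at 78.9% (76.9 to 80.9%), against 76.8% (76.3 to 77.4%) of 24594 such sites on the other autosomes. The medians were 2.57 for iPSC and 2.03 for ESC. The fragments at the summit, as a multiple of the lowest background of each list, were higher in ESC, at 9.84 against 7.29 times. The iPSC value was the higher at 2.94% of the sites (2.18 to 3.87%), against 2.48% elsewhere. The 2 measures rank the lists in opposite order, and how each list was scaled is not given, so neither is a measure of methylation that can be compared between cell types.

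The background behind the peaks, solved from fold and −log10 p together, moved with the density. Over the 92 windows the median background of a window correlated with its number of peaks (Spearman 0.646 in ESC and 0.660 in iPSC, a description over windows of the same libraries). In ESC it was highest in the first window, at 4.63 times the lowest background of the list. In iPSC the first window and that from 58 to 59 Mb shared the highest value of 3.32 times. In the sparse stretch from 37 to 50 Mb it was 1.79 times in ESC and 1.86 in iPSC, in the dense zone from 59 to 63 Mb 3.06 and 2.74, and in the first 3 Mb 4.48 and 3.13. Over the whole chromosome the ESC background of 2.91 times was the second highest autosome, after chromosome 19, and the iPSC background of 2.64 times ranked 6. In 4 classes of iPSC peaks of about equal size by autosomal background, the overlapping share was again lower on chromosome 10, at 50.2, 53.7, 63.2 and 76.96% against 54.2, 61.4, 69.7 and 82.3%, with overlapping intervals in the lowest class alone. The part of the background in the density of peaks was not tested.

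**Figure D5:**
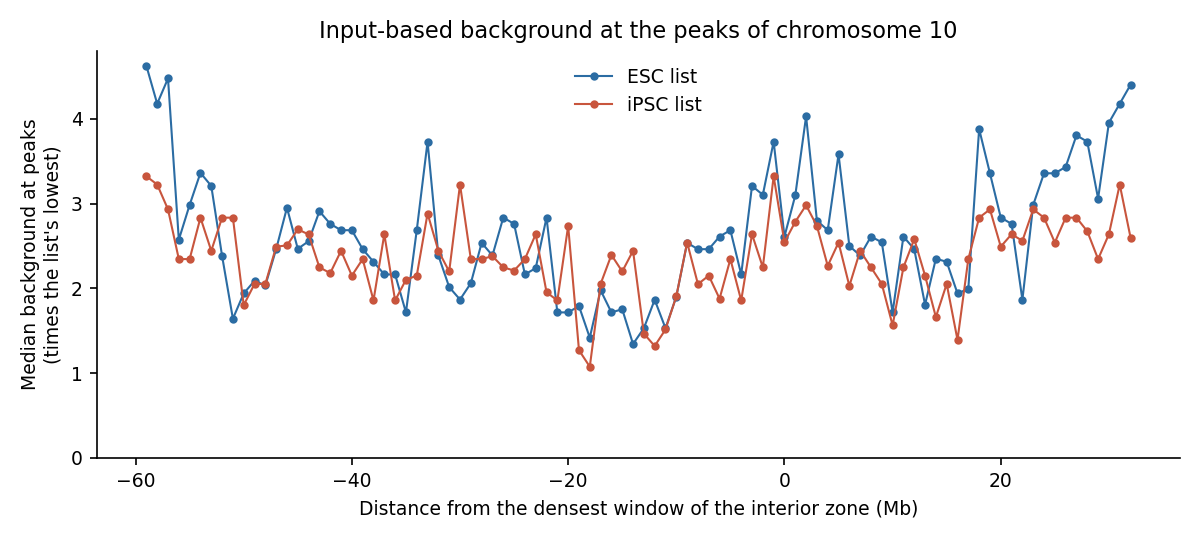
Median background at the peaks of each 1 Mb window of chromosome 10, as a multiple of the lowest background in its list, for the ESC list (blue) and the iPSC list (red), by distance in Mb from the window of 59 to 60 Mb. The ESC line is highest in the first window (4.63), the iPSC line there and 1 Mb before the zero point (3.32 in both), and both are low in the sparse stretch that ends 9 Mb before the zero point.

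The 2 lists differed in background along chromosome 10 to about the same degree in most places. At sites where a single peak of each list met, the median ratio of iPSC to ESC relative background was 0.589 on chromosome 10, and it ran from 0.582 to 0.612 over the other autosomes. In blocks of 10 Mb along the chromosome it lay between 0.566 and 0.647, with the highest value in the block from 40 to 50 Mb, which has 34 such sites. From 56 to 57 Mb, where iPSC peaks were most numerous for the ESC count, the background was 2.64 times in iPSC and 3.21 times in ESC. In 2 stretches with many peaks in the iPSC list alone the ratio was lower, at 0.507 at 33 sites from 54 to 58 Mb (the sparse stretch and the window after it) and 0.419 at 19 sites from 88 to 89 Mb. Both were singled out after their values were seen, and the part of the lower iPSC background in their peaks was not tested.

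Runs of at least 5 peaks, each within 2 kb of the next, held a larger share of the ESC list than of the iPSC list on chromosome 10, as on every autosome. The ESC list is also the longer, with 8224 against 2768 peaks on chromosome 10, and the part of list length was not tested. The ESC share in runs was 6.42%, rank 6 of the 20 autosomes, against 7.99% on chromosome 16, 9.17% on chromosome 20 and 12.9% on chromosome 19. In the ESC list of chromosome 10 such runs numbered 82 and held 528 peaks. The longest ran over 21.1 kb at chr10:600071-621148 with 21 peaks, of which 7 overlapped iPSC peaks, and the next over 16.5 kb at chr10:83755595-83772048 (13 peaks, 7 overlapping) and 14.9 kb at chr10:90196487-90211396 (12 peaks, 3 overlapping). The iPSC list had 3 such runs with 15 peaks (0.542%, rank 16 of the 20 autosomes, against 1.83% on chromosome 16 and 1.43% on chromosome 19), each of 5 peaks, at chr10:991251-997456, chr10:925895-931124 and chr10:26897544-26902176. In each of them 4 of the 5 peaks overlapped an ESC peak. The last of these lies in the window from 26 to 27 Mb, an interior maximum of the iPSC list.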

How the data were processed

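The 2 deposited MACS2 peak lists, 1 per cell type, were used. Per the submitters' processing notes, MACS2, deepTools, SAMtools 1.10 and Picard 2.239 were used. The aligner, build, options and pooling of libraries: not given in the sources used here. Per peak the authors deposited a fold (ratio of summit pileup to local background), a −log10 p-value and a −log10 q-value, and a score equal to 10 times that −log10 q without its decimals at nearly all peaks. The smallest −log10 q was 1.30 in both lists. The members, windows and alternatives were chosen with earlier results of these data known. Libraries were grouped by title. Positions were shifted to count from 1. A span ends at the last peak of either list, and distance to an end is taken from the middle of a peak. Overlap means at least 1 bp. Intervals are exact 95% (Clopper-Pearson for shares, Poisson or conditional binomial for densities and ratios). Pileup and background were solved from fold, with 1 added to both terms, and the Poisson tail, and the pileup was a whole number, in iPSC a whole multiple of 0.690, within 0.02 for 100% of peaks. The lowest background was 12.0 (ESC) and 10.2 (iPSC) fragments. Overlap and recovery were tested on simulated data. The sites named are, by rule, the 5 densest windows per list, interior maxima, the 3 highest and 3 lowest windows by iPSC to ESC ratio, the 3 windows with fewest ESC peaks, and per class the 3 peaks of highest fold, the 3 widest and the 3 longest runs. Others were singled out after their values were seen. The RefSeq annotation at hand, of Panubis1.0, numbers another, longer chromosome as 10, so it was not used. Tools were Python 3.11.15, with scipy 1.17.1, matplotlib 3.10.9, pandas 2.3.3 and numpy 2.4.6.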

Additional observations from a re-analysis of the deposited data

How the results depend on the processing

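The place of chromosome 10 among the autosomes changed little. Its iPSC density stayed second, its ratio of iPSC to ESC peaks second and its iPSC overlap the lowest in each alternative run for them, of which the ESC list at the iPSC length leaves the iPSC list, and so the iPSC density, as it is; its ESC density ranked 3 in place of 4 without the first and last 5 Mb, and its ESC overlap ranked 3 in place of 2 with the ESC list at the iPSC length. Of 43 values under alternatives, 14 stayed within the counting interval of the reported value and 2, the iPSC density and end share with a shorter ESC list, could not move. Counts of interior maxima have no such interval: at a −log10 q of at least 5 they were 0 for ESC and 4 for iPSC in place of 3, and with windows of 2 Mb 0 for ESC. The other 24 follow. At a −log10 q of at least 5, the ratio was 36.9 iPSC per 100 ESC peaks, the overlap 52.8% of iPSC and 19.5% of ESC peaks, the ESC share within 5 Mb of an end 24.3% and the median ESC width 213 bp. With the ESC list at the iPSC length, the ESC density was 1.61 times that of the others, the ratio 126.6 per 100, the overlap 25.3% of iPSC and 31.8% of ESC peaks, the ESC share near an end 28.2% and the ESC interior maxima 2. There are then fewer ESC sites to meet. With peaks at most 500 bp apart merged, 21.4% of ESC peaks lay near an end. For overlap of at least 50% of both peaks the shares were 54.6% and 18.4%. Within 2 Mb of an end lay 11.8% of ESC and 14.7% of iPSC peaks, and within 10 Mb 36.4% and 42.6%. Without the first and last 5 Mb the iPSC density was 2.17 times that of the others. Windows starting 0.5 Mb later gave 1 ESC and 8 iPSC interior maxima, windows of 2 Mb gave 0 iPSC maxima, and a limit of 1.5 times the median gave 3 and 6. With windows of 2 Mb the flank stayed at 2 windows and so was wider in Mb, which makes the rule stricter as well as the windows larger. Otherwise the cause was not tested. The limit of 1.5 times and the leaving out of 54 to 57 Mb were chosen after seeing the data. No paired analysis was possible because the lists, 1 per cell type, hold no column per replicate, which also leaves no replicate to leave out. Depth per library is unknown.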
